A study of Homo sapiens with 15 samples.

Results

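The expressed LINC and antisense long noncoding RNAs were described in 3′ RNA-seq of SCC15 and SCC25, lines of head and neck cancer (HNC), with and without YBX1, together with the normal oral line OKF6. Members were the genes whose symbol was LINC followed by digits, or ended in -AS and a digit, and whose mean level over the 9 libraries of the cell line table was above 0 on the log2 CPM scale (CPM, counted reads scaled to a common library size). Of the 12995 genes listed, 225 symbols had this form and 171 passed, 53 of them LINC and 118 antisense RNAs. Members were thus selected on their measured mean level, so levels are given as a description and were not tested. Just inside the threshold lay NFYC-AS1 at 0.05, LINC00886 at 0.05 and NR2F2-AS1 at 0.06 log2 CPM. Just outside lay TMEM254-AS1 at -0.0062, TFAP2A-AS1 at -0.016 and LINC00865 at -0.019. The remaining symbols, 54 in all, are not described further.

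A long noncoding RNA is transcribed, capped, often spliced and often polyadenylated like an mRNA but encodes no known protein. The LINC symbols name RNAs transcribed between coding genes, and the -AS symbols name RNAs transcribed from the strand opposite a coding gene, either head to head from a shared promoter region or running through its exons. Many are restricted to a cell type, and a few are known to act as scaffolds, as decoys for proteins or microRNAs, or on the neighbouring gene. YBX1 is a DNA- and RNA-binding protein named for the Y-box, an inverted CCAAT element in promoters, and it also packages mRNA in the cytoplasm.

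Groups of 3 libraries were available for OKF6, a wild-type line of normal oral epithelial origin, and for SCC15 and SCC25, both oral cancer lines, each in 2 states. The SCC15 and SCC25 cells carried Cas9 and a guide RNA against YBX1 induced by doxycycline, delivered by lentivirus and sorted for GFP and mCherry. They were left without doxycycline (DOXneg, +YBX1) or given 1 µg/ml (DOXpos, –YBX1), and all groups carry a label of 3 days. OKF6 had no such construct in its labels. SCC15 grew in DMEM and serum whereas the other 2 lines grew in a keratinocyte medium free of serum, and line and medium cannot be told apart wherever SCC15 is compared. The labels do not say whether the replicates were separate cultures, so p-values measure only the spread between these libraries. The same +YBX1 libraries served in the comparison of lines and as controls of the knockdown.

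YBX1 itself measured 6.76, 8.15 and 8.37 log2 CPM in OKF6, 5.11, 5.56 and 6.00 in SCC15 +YBX1 and 3.36, 3.71 and 3.13 in SCC15 –YBX1. In SCC25 it measured 6.74, 6.31 and 6.62 in the +YBX1 and 5.26, 4.70 and 3.65 in the –YBX1 libraries. The –YBX1 libraries lay below the +YBX1 libraries of their line without overlap, and RNA of YBX1 remained in all of them. The fitted difference was -2.01 ± 0.35 (log2 ± SE, n = 3 per group) in SCC25 with limma's adjusted p = 0.29, -2.15 ± 0.35 in SCC15 with adjusted p = 0.326, and -2.08 ± 0.24 averaged over both lines with adjusted p = 0.0103. Counted reads ranged from 4075290 to 6118501 per library, which makes 1 read worth 0.138 to 0.226 CPM. OKF6 replicates were less alike over the members than those of the other groups, with r between 0.598 and 0.651 against 0.817 to 0.959, and 24 and 21 members had 0 reads in OKF6 replicates 2 and 3 against 3 in replicate 1. Over the 8 epithelial markers (KRT5, KRT14, KRT17, KRT8, KRT18, EPCAM, CDH1, TP63), summed CPM was 10012 to 20898 in OKF6 and 5413 to 11910 in SCC25 +YBX1, but 63.1 to 76.7 in SCC15 +YBX1 and 48.2 to 63.7 in SCC15 –YBX1. In SCC15 +YBX1, 5 of the 8 stayed above 3 reads in every library, and TP63, which defines squamous epithelium, had 1 read in all 3 libraries together. The fibroblast markers listed, COL1A1 and LUM, summed to 11.3 to 97.9 CPM over all groups, CD14 was the one immune marker listed, and no endothelial marker was listed. The part of these marker levels in the differences between lines was not tested. In RNA from whole cultures, fewer cells that express a gene and less of its RNA per cell cannot be told apart.

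Promoters are shown first for 3 members among those with the largest differences between lines, because YBX1 is named for the Y-box. They run from 250 bases before to 50 after the start site in RefSeq on GRCh38.p14, 5′ to 3′ on the strand of the RNA, with capitals marking ATTGG or its reverse CCAAT (Y-box) and TATAAA on either strand.
LINC01133, chr1:159960974-159961273, plus strand: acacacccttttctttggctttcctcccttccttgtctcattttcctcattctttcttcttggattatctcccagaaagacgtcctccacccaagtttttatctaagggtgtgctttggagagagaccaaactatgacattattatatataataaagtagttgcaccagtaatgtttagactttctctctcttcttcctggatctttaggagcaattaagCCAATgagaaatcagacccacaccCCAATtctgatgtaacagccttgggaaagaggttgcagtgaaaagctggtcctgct
ATP6V0E2-AS1, chr7:149873813-149874112, minus strand: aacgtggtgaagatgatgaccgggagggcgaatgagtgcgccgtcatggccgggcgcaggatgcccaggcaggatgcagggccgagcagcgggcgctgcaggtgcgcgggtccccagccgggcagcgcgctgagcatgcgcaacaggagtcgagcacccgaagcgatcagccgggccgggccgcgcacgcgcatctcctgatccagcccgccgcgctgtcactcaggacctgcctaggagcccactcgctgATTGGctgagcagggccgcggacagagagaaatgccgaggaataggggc
PTPRG-AS1, chr3:62318898-62319197, minus strand: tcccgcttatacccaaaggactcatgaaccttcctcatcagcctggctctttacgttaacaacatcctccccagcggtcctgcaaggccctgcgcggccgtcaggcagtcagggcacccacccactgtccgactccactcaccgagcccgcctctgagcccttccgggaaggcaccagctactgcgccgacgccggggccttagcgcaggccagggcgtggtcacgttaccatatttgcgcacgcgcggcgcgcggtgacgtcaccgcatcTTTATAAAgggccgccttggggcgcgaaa
The LINC01133 window held 2 Y-boxes, the ATP6V0E2-AS1 window 1 and the PTPRG-AS1 window none. Their RefSeq start sites, at 159961224, 149873862 and 62318947, lie inside the GENCODE gene spans given below rather than at the ends. Promoters of other starts of these RNAs are not shown. A promoter window was found for 139 of the 171 members, 173 windows in all. A Y-box lay in 34.1% of them, against 34.6% of the 35116 windows of all 27305 genes, with 45.5% for LINC and 30.2% for antisense members. GGGCGG, the GC box, lay in 59.0% of member windows against 45.0% of all windows, TGANTCA (AP-1) in 5.20% against 7.71%, CAGGTG (the E-box of ZEB1 and SNAI1) in 23.1% against 20.6%, and TATAAA in 8.09% against 11.5%. Each motif was searched on both strands, and a match is a description of the letters alone.

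Because the libraries were primed at the poly(A) tail, a member is counted only through its 3′ end. The last 50 bases of the GENCODE v44 transcript are shown for FGD5-AS1, one of the most abundant members, and for the 2 that differed most between SCC15 and OKF6, with AATAAA or ATTAAA, the polyadenylation hexamers, in capitals.
FGD5-AS1, chr3:14920347-14920396, minus strand: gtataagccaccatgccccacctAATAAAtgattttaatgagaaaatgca
LINC00958, chr11:12961541-12961590, minus strand: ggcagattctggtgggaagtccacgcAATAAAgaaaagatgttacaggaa
LINC00707, chr10:6842857-6842906, plus strand: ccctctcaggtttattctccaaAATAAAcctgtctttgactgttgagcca
The hexamer ended 21 bases before the transcript end in FGD5-AS1, 18 in LINC00958 and 22 in LINC00707. One or the other hexamer lay in the last 50 bases of 84 of the 168 annotated members, AATAAA in 73 and ATTAAA in 22.

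The members lay on 22 chromosomes, and their transcripts had a median length of 1714.5 bases and a median of 3 exons. Of the 118 antisense members, 73 started within 1000 bases of an opposite-strand coding start (a divergent, or head-to-head, arrangement), 41 overlapped an exon of an opposite coding gene without that, 3 did neither and 1 was not matched. Of the 53 LINC members, 39 did neither, 9 were divergent, 3 overlapped an opposite coding exon and 2 were not matched. For 19 members the last 300 bases overlapped, at least in part, an exon of a coding gene on the opposite strand. An exon of a coding gene on their own strand was overlapped by 12. The strand setting of the read counting is not given in the sources used here, so reads of those members and of the coding gene cannot be told apart. The identifier listed as LINC00673 belongs to LINC00511 in GENCODE, and GRIK1-AS2 is listed with the same Ensembl identifier as the coding gene BACH1 and could not be placed, so what its values measure is uncertain.

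Most members were expressed at low levels. Their median mean level was 1.85 log2 CPM, 1.80 for LINC and 1.90 for antisense RNAs, against 4.01 for all genes, and 17 members lay above the median of all genes. EPB41L4A-AS1 (chr5:112160526-112164818), the highest, measured 6.72, 5.69 and 6.00 in OKF6, 6.67, 6.66 and 5.85 in SCC15 +YBX1 and 5.33, 5.75 and 5.62 in SCC25 +YBX1. The OKF6 range overlapped both of the others, and the last 300 bases of this RNA overlap an exon of EPB41L4A. FGD5-AS1 (chr3:14920347-14948424) followed with 7.23, 6.06 and 6.39 in OKF6, 6.27, 5.89 and 5.76 in SCC15 and 5.15, 5.17 and 5.01 in SCC25. Every SCC25 library lay under every library of the other lines. Next in order came VPS9D1-AS1 (5.72 on average), ZBED5-AS1 (5.45), LINC00674 (5.16), MRPL20-AS1 (4.99), PSMA3-AS1 (4.94), ELOA-AS1 (4.90), OIP5-AS1 (4.76) and TP73-AS1 (4.56). PSMA3-AS1 was among the most even of these, from 4.64 to 5.27 over the 9 libraries, and none of its differences between lines passed the test. All members together took 0.134% ± 0.0117 (SD, n = 3) of the reads in OKF6, 0.202% ± 0.0227 in SCC15 +YBX1, 0.143% ± 0.00208 in SCC25 +YBX1, 0.212% ± 0.0443 in SCC15 –YBX1 and 0.151% ± 0.00252 in SCC25 –YBX1.

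**Figure D1:**
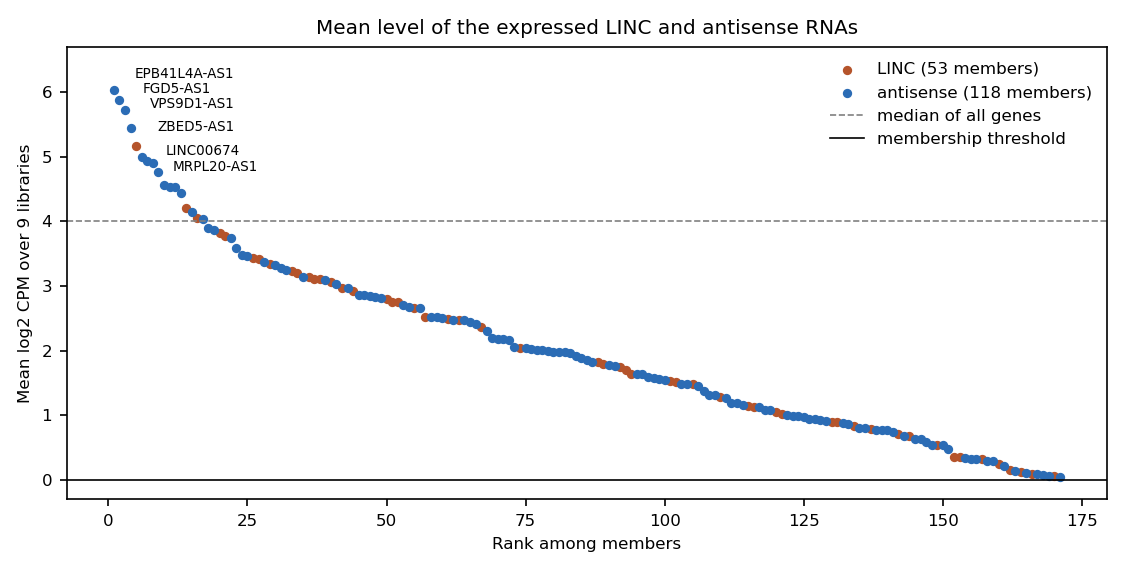
Mean log2 CPM over the 9 libraries of the cell line table (y axis) against rank among the 171 members (x axis), coloured by class, with the median of all genes at 4.01 dashed and the threshold at 0 as a solid line. The 17 members above the dashed line are mostly antisense RNAs, and the levels decline without a break towards the threshold.

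The first comparison asked how SCC15 differed from the normal OKF6 cells. Most of the antisense RNAs that passed the test were higher in SCC15, whereas a group of LINC RNAs detected in OKF6 gave no or almost no reads in SCC15. Of the 171 members, 56 were higher in SCC15 (32.7%, against 26.9% of all genes tested) and 24 were lower (14.0%, against 23.4%), by limma at an adjusted p of 0.05. The members had passed a threshold on the mean over OKF6 and both cancer lines, which the genes tested had not. It kept 76% of the symbols of this form, whereas 90.2% of all genes lay above it. Its part in the counts of this and the later comparisons of lines was not tested. Among the antisense members 43 were higher and 8 lower, and among the LINC members 13 were higher and 16 lower. The median log2 difference was 1.12 for antisense, 0.59 for LINC and 0.96 for all members, against 0.10 over all genes. Divergent members were higher in 33 cases and lower in 5 of 82, members that overlapped a coding exon in 14 and 7 of 44, and members with neither arrangement in 8 and 12 of 42. Without the members that overlapped a coding exon at the 3′ end or on the same strand, 46 were higher and 23 lower of 143. The OKF6 libraries had a lower median level over the members, 1.71 to 2.04 log2 CPM against 2.26 to 2.61 in SCC15 +YBX1, whose part in the counts was not tested.

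LINC00958 (chr11:12961541-12989597), also called BLACAT2 and studied in several carcinomas, measured 5.44, 6.11 and 5.11 log2 CPM in OKF6 and had 0 reads in every SCC15 library, 736 reads in OKF6 against 0. The difference was at least 282-fold lower in SCC15 (floor of 3 reads over the group, adjusted p = 9.2e-08, limma). LINC00707 (chr10:6779549-6842906) measured 4.08, 4.52 and 4.76 in OKF6 and again had 0 reads in SCC15, at least 134-fold lower (adjusted p = 3.71e-07). Both RNAs were thus present in every OKF6 library and undetected in all of SCC15 at this depth. LINC01133 (chr1:159958035-159984750), studied for its part in epithelial-mesenchymal transition and the first of the promoters shown, measured 3.30, 4.56 and 4.55 in OKF6 and had 1 read in the 3 SCC15 +YBX1 libraries together. The ratio of OKF6 to SCC15 was 337 with an exact counting interval of 60.0 to 13349 (adjusted p = 1.13e-05). LINC00667, whose 3′ end overlaps an exon of ZBTB14, measured 3.44, 1.61 and 2.84 in OKF6 against 0 reads, at least 42.5-fold lower (adjusted p = 4.07e-06). GPRC5D-AS1 and LINC00886 had 0 reads in SCC15 as well and were at least 28.0-fold and 16.9-fold lower. LINC00520 and PAX8-AS1 had 3 reads in the SCC15 +YBX1 libraries, all of them in replicate 1, and were lower with adjusted p = 0.00029 and 0.000142. No library of SCC15 reached the lowest OKF6 library in any of these 8 members. They were chosen as the largest called differences downward, which largely fixes such a separation. GPRC5D-AS1, LINC00886 and LINC00520 had means over the 9 libraries of 0.31, 0.05 and 0.31 log2 CPM. These members passed the membership threshold through libraries other than those of SCC15, and a deficit in SCC15 was partly built in.

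Among members higher in SCC15, ATP6V0E2-AS1 (chr7:149867697-149880610), antisense to a subunit of the vacuolar proton pump, had 0 reads in OKF6 and measured 2.38, 3.63 and 3.44 log2 CPM in SCC15, at least 49.6-fold higher (adjusted p = 1.92e-06). NR2F1-AS1 (chr5:93360779-93585649), antisense to a nuclear receptor gene, had 0 reads in OKF6 and measured 1.67, 1.92 and 2.60 in SCC15, at least 22.6-fold higher (adjusted p = 5.87e-06). LINC00470 measured 4.01, 3.17 and 3.58 in SCC15 against 2 reads in OKF6, all in replicate 3, a ratio of 94.8 with an interval of 25.9 to 788. For these 3 the SCC15 libraries stood far above OKF6. Their means over the 9 libraries were 0.29, 0.91 and 0.24 log2 CPM. They thus passed the membership threshold through the cancer lines, and a difference from OKF6 was partly built in. CIRBP-AS1, which starts head to head with the cold-inducible RNA-binding protein gene, measured 3.76, 5.03 and 5.00 against 0.08, 1.37 and -0.40 in OKF6, a difference of 4.25 ± 0.55 (adjusted p = 7.77e-05). HOXA-AS2, inside the HOXA cluster, measured 2.95, 3.40 and 3.72 in SCC15 and had 19, 0 and 1 reads in the OKF6 libraries, a difference of 4.43 ± 1.04 (adjusted p = 0.00444). MZF1-AS1, LINC01569 and MMP25-AS1 were also higher, with 6, 3 and 1 reads in OKF6 replicate 1 and 0 reads in its other replicates. Their means over the 9 libraries were 0.68, 0.78 and 0.33 log2 CPM, so a difference was partly built in here too. VPS9D1-AS1 (chr16:89711856-89718165), next after FGD5-AS1 in mean level, measured 4.39, 2.87 and 4.21 in OKF6 and 7.58, 7.60 and 7.10 in SCC15, a difference of 3.60 ± 0.36 (adjusted p = 1.26e-05).

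**Figure D2:**
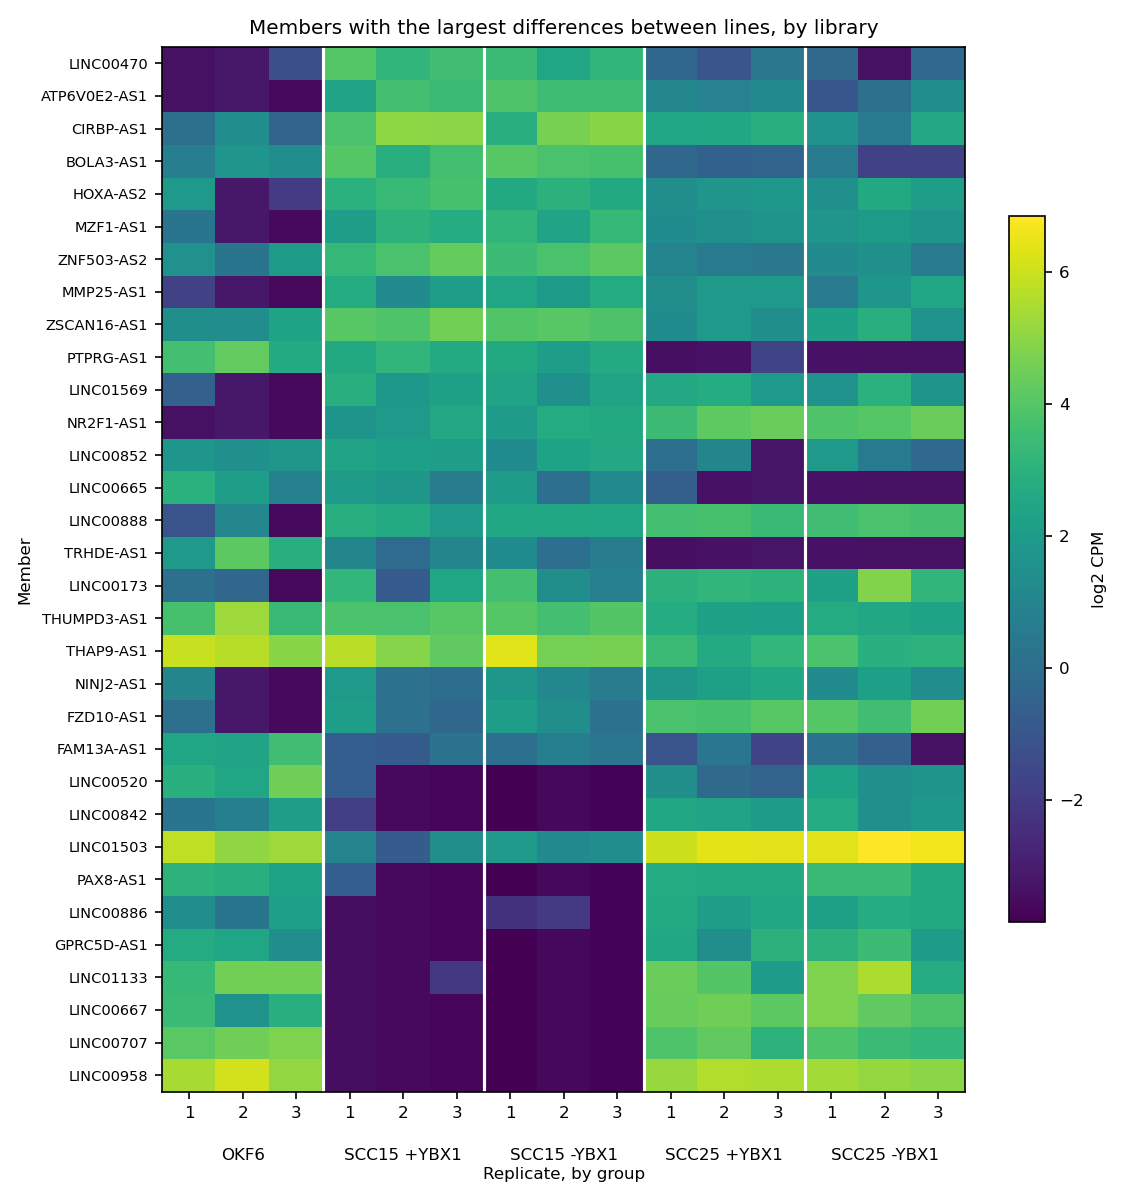
Level in log2 CPM (colour) of the members named for the largest differences between lines (y axis) in each of the 15 libraries (x axis, replicates 1 to 3 of each group). The block of LINC00958, LINC00707, LINC00667 and LINC01133 is dark in all SCC15 libraries with and without YBX1, and PTPRG-AS1, TRHDE-AS1 and LINC00665 are dark in SCC25.

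SCC25 was compared with OKF6 in the same fit and with the same OKF6 libraries. Here 37 members were higher in SCC25 (21.6%, against 18.9% of all genes) and 10 lower (5.85%, against 11.3%), 26 and 8 of them antisense and 11 and 2 LINC. The median log2 difference was 0.64 over the members and 0.13 over all genes. The count rested in part on single libraries, falling from 47 to 29 without SCC25 +YBX1 replicate 2 and to 26 without replicate 3. After quantile normalization 29 were higher and 15 lower, so that the share of calls that were higher was 65.9% rather than 78.7%. The LINC RNAs without reads in SCC15 were present in SCC25. LINC00958 measured 5.17, 5.59 and 5.53 in SCC25 +YBX1, within the range of OKF6, and neither LINC00707 (3.88, 4.23 and 3.04) nor LINC01133 (4.39, 3.97 and 2.02) passed the test against OKF6.

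NR2F1-AS1 measured 3.46, 4.20 and 4.40 log2 CPM in SCC25 against 0 reads in OKF6, at least 86.1-fold higher (adjusted p = 6.25e-06). FZD10-AS1, which starts head to head with a Wnt receptor gene, measured 3.75, 3.71 and 4.07 in SCC25 and had 5, 0 and 0 reads in OKF6, a difference of 6.06 ± 0.94 (adjusted p = 0.000954). LINC01569, MMP25-AS1, ATP6V0E2-AS1, LINC00888, LINC00173 and NINJ2-AS1 were the other members with the largest positive differences. The 8 were chosen for this, so it follows largely from the choice that their SCC25 +YBX1 libraries lay above every OKF6 library. Means over the 9 libraries were 0.91 log2 CPM for NR2F1-AS1, 0.76 for FZD10-AS1, 0.78 for LINC01569, 0.33 for MMP25-AS1, 0.29 for ATP6V0E2-AS1 and 0.32 for NINJ2-AS1. These members passed the membership threshold through the cancer lines, so a difference from OKF6 was partly built in. The adjusted p of the 8 ranged from 6.25e-06 to 0.0156 (limma). NINJ2-AS1 was not called without OKF6 replicate 3 or SCC25 +YBX1 replicate 2 or 3, each left out singly (0.0502 to 0.0555). The negative differences were led by RNAs with few or no reads in SCC25 +YBX1. PTPRG-AS1 (chr3:62221249-62369406) is antisense to a receptor tyrosine phosphatase gene, and its window above has TATAAA matches after the start site. It measured 3.65, 4.27 and 2.70 in OKF6 and had 1 read in SCC25 +YBX1, a ratio of 183 with an interval of 32.5 to 7283 (adjusted p = 4.48e-05). TRHDE-AS1 (chr12:72249964-72276954) measured 1.90, 4.13 and 2.91 in OKF6 and had 0 reads in SCC25, at least 45.5-fold lower (adjusted p = 5.56e-05). Its mean over the 9 libraries was 0.10, so it passed the membership threshold mainly through OKF6. LINC00665 measured 2.96, 2.14 and 0.82 in OKF6 and had 3 reads in SCC25 +YBX1, all in replicate 1, a ratio of 22.4 with an interval of 7.37 to 111. FAM13A-AS1, LINC00520, THAP9-AS1, THUMPD3-AS1 and BOLA3-AS1 were lower by -3.61 ± 0.64, -3.04 ± 0.92, -2.41 ± 0.41, -1.72 ± 0.48 and -1.68 ± 0.49. LINC00520 was not called without OKF6 replicate 3 or SCC25 +YBX1 replicate 2 or 3 (adjusted p up to 0.104), and THUMPD3-AS1 without SCC25 +YBX1 replicate 2 or 3 (up to 0.0708). BOLA3-AS1 was not called without OKF6 replicate 2 or any single SCC25 +YBX1 library (up to 0.0812).

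Between the cancer lines, SCC15 and SCC25 differed in 61 members, 30 higher in SCC15 (17.5%, against 20% of all genes) and 31 lower (18.1%, against 23.6%). The classes differed in direction. Among LINC members 8 were higher and 19 lower in SCC15, with a median difference of -0.39, and among antisense members 22 were higher and 12 lower, with a median of 0.56, against -0.01 over all genes. With only these groups in the fit the count rose to 101, 58 higher and 43 lower. Quantile normalization gave 45 higher and 34 lower, or 57.0% of calls higher against 49.2%, while the median difference of all genes moved to 0.17. LINC00958, LINC00667 and LINC00707 were at least 258-fold, 121-fold and 83.3-fold lower in SCC15. LINC00667 measured 4.34, 4.51 and 4.15 log2 CPM in SCC25 +YBX1 and 0 reads in SCC15. LINC01503 (chr9:129332300-129359549), described in squamous cell carcinomas, measured 6.03, 6.38 and 6.38 in SCC25 against 0.94, -0.76 and 1.43 in SCC15, a difference of -5.73 ± 0.50 (adjusted p = 5.69e-06). LINC01133, LINC00886, GPRC5D-AS1 and LINC00842 completed the 8 with the largest negative differences. In all 8 the SCC15 and SCC25 +YBX1 libraries did not overlap, which follows largely from choosing the 8 by the size of a called difference. LINC00886, GPRC5D-AS1 and LINC00842 had means over the 9 libraries of 0.05, 0.31 and 0.11 log2 CPM. They passed the membership threshold through libraries other than those of SCC15, so a deficit there was partly built in.

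PTPRG-AS1 had the largest difference in favour of SCC15 over SCC25, at 2.65, 3.20 and 2.68 log2 CPM against 1 read, a ratio of 109 with an interval of 19.3 to 4358 (adjusted p = 3.09e-05). TRHDE-AS1, at 1.07, -0.11 and 1.06 in SCC15, was at least 8.20-fold higher there (adjusted p = 0.000451). BOLA3-AS1 (chr2:74148007-74151952), head to head with a mitochondrial iron-sulphur cluster gene, measured 4.01, 2.87 and 3.60 in SCC15, 0.70, 1.71 and 1.39 in OKF6 and -0.24, -0.54 and -0.46 in SCC25, so that the 3 lines did not overlap. It was higher by 3.91 ± 0.49 in SCC15 than in SCC25 (adjusted p = 8.63e-05). ZNF503-AS2, antisense to a zinc finger gene, measured 3.28, 3.76 and 4.32 in SCC15 against 0.98, 0.56 and 0.43 in SCC25, a difference of 3.13 ± 0.54 (adjusted p = 0.000766). LINC00665, LINC00470, ZSCAN16-AS1 and LINC00852 were the other members with the largest positive differences. The call of LINC00852 was lost without any single SCC15 library, with adjusted p from 0.0571 to 0.0707, and its 3′ end overlaps an exon of GHRL.

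**Figure D3:**
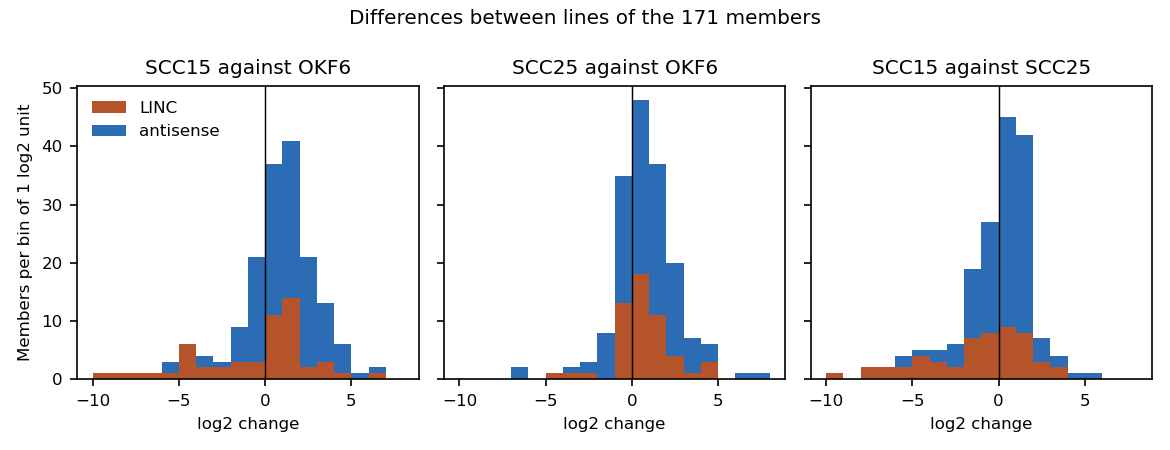
Number of members (y axis) by log2 difference in bins of 1 (x axis) for the 3 comparisons of lines, with LINC members stacked under antisense members. The bulk lies to the right of 0 in both comparisons with OKF6, and the long left tail of LINC members, which reaches -9.13 against OKF6, appears in both panels that involve SCC15.

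The antisense RNAs were set beside the sense gene that their symbol names. Of the antisense members, 97 had a listed sense gene, which had the higher mean level in 76 pairs, with medians of 4.61 and 1.85 log2 CPM. Levels of different genes were compared without division by length, since only the 3′ end of each transcript is read. In SCC15 against OKF6 both genes were called in the same direction in 19 pairs and in opposite directions in 7, the antisense RNA alone in 16, the sense gene alone in 19 and neither in 36. In SCC25 against OKF6 the numbers were 10, 0, 18, 25 and 44, and in SCC15 against SCC25 they were 8, 2, 17, 27 and 43. Over the 29 pairs that overlap in exons without a divergent start, r between the log2 differences of both genes was 0.64, 0.59 and 0.44 in the 3 comparisons, over the 49 pairs in which the antisense RNA starts head to head with the sense gene it was 0.02, 0.33 and 0.55, and over the 17 in which it starts head to head with another annotated gene it was -0.05, 0.04 and 0.00. These correlations run across genes of the same libraries and are given as a description. Some antisense RNAs end in an exon of the sense gene, such as EPB41L4A-AS1 among the overlapping pairs. MRPL20-AS1, head to head with another gene, does so too. Reads of both genes cannot be told apart there, and their part in r was not tested.

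Among the pairs with both genes called was NR2F1, a nuclear receptor gene with 0 reads in OKF6. It measured 1.75, 3.09 and 2.99 log2 CPM in SCC15 and -0.24, -0.17 and 0.64 in SCC25, so that the sense gene was higher in SCC15 (2.53, adjusted p = 0.0033) where NR2F1-AS1 was higher in SCC25 (-1.95 ± 0.50, adjusted p = 0.0086). Both RNAs had reads in both cancer lines and none in OKF6, in opposite order between the cancer lines. PAX8, a transcription factor gene, measured 4.16, 4.24 and 4.49 in OKF6, 4.64, 4.11 and 4.75 in SCC25 and had 0 reads in SCC15, where PAX8-AS1 had 3. ATP6V0E2 measured 6.91, 7.88 and 7.46 in SCC15, 2.78, 2.49 and 2.41 in SCC25 and 0.52 ± 0.67 (mean ± SD, n = 3) in OKF6. ATP6V0E2-AS1 followed the same order, and its last 300 bases overlap an exon of ATP6V0E2. LOXL1, which encodes an enzyme that cross-links elastin, was higher in SCC15 by 4.71 and in SCC25 by 7.39, and LOXL1-AS1 by 3.84 and 3.76.

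The pairs called in opposite directions between SCC15 and OKF6 were those of ELOA, NOP14, PXN, TRAF3IP2, ZNF436, ARRDC1 and RBM26. TRAF3IP2, the adaptor of the interleukin-17 receptor, measured 6.11, 6.38 and 6.21 log2 CPM in OKF6 and 3.87, 2.31 and 1.86 in SCC15 (-3.55, adjusted p = 4.3e-05), while TRAF3IP2-AS1 was higher by 3.34 (adjusted p = 0.00046). The pair was opposite in SCC15 against SCC25 too, at -3.57 and 1.87. PXN, which encodes the focal adhesion protein paxillin, measured 10.01, 9.19 and 9.32 in OKF6 and 7.62, 6.84 and 6.63 in SCC15 (-2.47), while PXN-AS1 was higher by 2.42 (adjusted p = 0.015). Of the 7, NOP14-AS1 alone was lower in SCC15 with its sense gene higher. ZNF436-AS1 and RBM26-AS1 start head to head with their sense gene, whereas ELOA-AS1, PXN-AS1, TRAF3IP2-AS1 and ARRDC1-AS1 start head to head with another coding gene (PITHD1, RPLP0, REV3L and EHMT1).

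**Figure D4:**
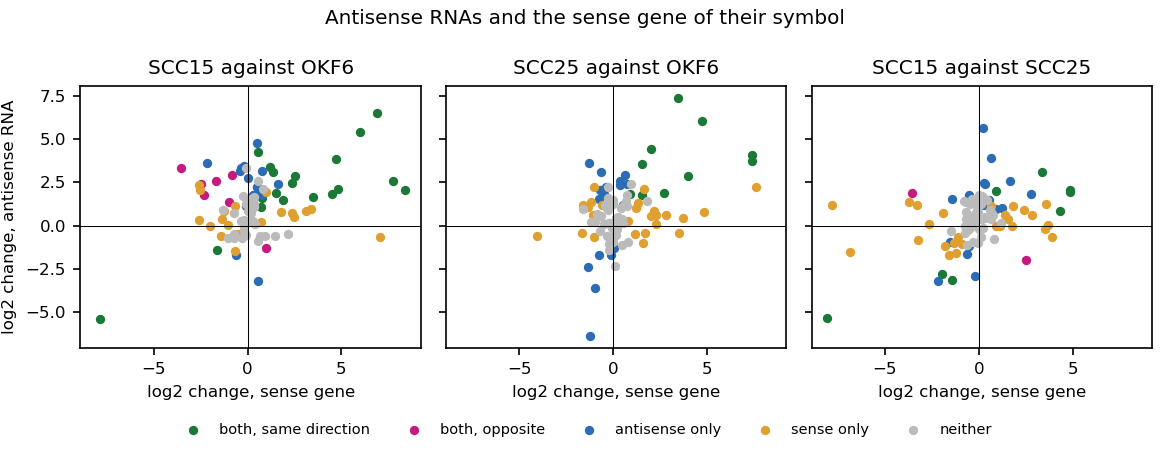
Log2 difference of the antisense RNA (y axis) against that of the sense gene (x axis) for the 97 pairs in each comparison of lines, coloured by which genes were called. Pairs called in the same direction lie in the upper right and lower left, and the 7 opposite pairs of SCC15 against OKF6 lie, but for 1, in the upper left.

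A list of 46 LINC and antisense RNAs that recur in the cancer literature was written with earlier results of these data known, so it is no independent evidence. Of these, 27 were listed in the tables and 21 were members. In SCC15 against OKF6, 1 was higher and 9 were lower, with a median of -0.59, in SCC25 against OKF6 2 were higher and 2 lower, and in SCC15 against SCC25 3 were higher and 8 lower. As shares of the 21 these were 4.76% and 42.9% (26.9% and 23.4% of all genes), 9.52% and 9.52% (18.9% and 11.3%), and 14.3% and 38.1% (20% and 23.6%). The member listed as LINC00673 had means of 4.20 log2 CPM in OKF6, -0.20 in SCC15 and 4.77 in SCC25, and LINC00941 had 3.47, -1.22 and 3.13. LINC01116 followed the same order less steeply, at 3.30, 1.02 and 4.09. TP73-AS1 was the one member of the list higher in SCC15 than in OKF6, by 1.66 ± 0.30 (adjusted p = 0.000793), and LINC00857 and OIP5-AS1 were higher in SCC25 than in OKF6 (adjusted p = 0.0469 and 0.0363). ZEB1-AS1, antisense to the gene of the EMT transcription factor ZEB1, had means of 1.48, 0.85 and 1.05 and passed in no comparison.

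Long noncoding RNAs outside the naming rule were counted beside the members. Of 38 symbols 33 were listed, with 10 higher and 12 lower in SCC15 against OKF6, 6 and 3 in SCC25 against OKF6 and 7 and 10 in SCC15 against SCC25. In all 66.7%, 27.3% and 51.5% were called, against 50.3%, 30.2% and 43.6% of all genes. MIR205HG, the host transcript of an epithelial microRNA, was likewise low in SCC15, with means of 9.30 in OKF6, -1.89 in SCC15 and 9.35 in SCC25. MEG3, an imprinted RNA, had 0 reads in OKF6 and SCC15 and measured 4.24, 3.82 and 3.55 in SCC25. HOTAIR, from the HOXC cluster, had 0 reads in OKF6, a mean of 1.90 in SCC15 and of 0.29 in SCC25. Nuclear MALAT1 measured 6.19, 11.03 and 7.32 in OKF6, a spread wider than its difference from SCC25.

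The last comparison asked whether these RNAs differed between –YBX1 and +YBX1 cells of the same line. Every –YBX1 library and no +YBX1 library was given doxycycline, so the drug and the loss of YBX1 cannot be told apart. No member passed in either line, in the average of both or in the difference between lines, by limma or with voom weights on recovered reads. Over all genes the share called was 0% in SCC25, 0% in SCC15, 0.0077% in the average, which is YBX1 itself, and 0% for the difference. An unadjusted p under 0.05 was reached by 6 members in SCC25 (3.09% of all genes), 5 in SCC15 (2.32%), 4 in the average (2.15%) and 3 in the difference (2.26%). The median change was 0.03, 0.09, 0.03 and -0.07 log2 units, with a median SE of 0.43, 0.43, 0.31 and 0.61. YBX1 itself did not pass within a single line at -2.01 and -2.15, so that member changes of up to this size could go uncalled there. In SCC25, 24 members were higher without YBX1 in all 3 replicate pairs and 19 lower (14.0% and 11.1%, against 11.0% and 11.5% of all genes). In SCC15 the numbers were 23 and 25 (13.5% and 14.6%, against 12.4% and 15.9%).

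CD27-AS1 (chr12:6439001-6451607), antisense to a lymphocyte receptor gene and head to head with TAPBPL, had the smallest p in SCC15. It had 1, 1 and 1 reads in SCC15 +YBX1 and 6, 6 and 5 in SCC15 –YBX1, a ratio of 5.04 with a counting interval of 1.46 to 26.9, and a change of 1.87 ± 0.44 (limma, adjusted p = 0.88). In SCC25 it measured 3.03, 2.44 and 2.71 log2 CPM with and 1.95, 3.43 and 2.77 without YBX1. The groups did not overlap in SCC15 and overlapped in SCC25. UBA6-AS1, head to head with a ubiquitin-activating enzyme gene, measured 2.77, 1.92 and 2.03 in SCC15 +YBX1 and 3.42, 3.08 and 3.13 in SCC15 –YBX1, a change of 0.97 ± 0.32 (adjusted p = 1.00), with 0.46 ± 0.32 in SCC25. ZNF436-AS1 measured 1.72, 1.70 and 1.78 in SCC25 +YBX1 and 2.45, 3.04 and 2.85 in SCC25 –YBX1, a change of 1.05 ± 0.39 (adjusted p = 1.00). In the line with the smaller p each of these changes held in 3 of 3 replicate pairs, and none passed adjustment. The members were chosen by small p, so agreement of pairs and separation of groups follow largely from that choice and add no evidence.

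Values in the other direction were those of TTN-AS1 in SCC25, at 1.63, 1.18 and 0.98 log2 CPM with and 0.37, 0.33 and 0.32 without YBX1 (-0.92 ± 0.38, adjusted p = 1.00), and of FOXN3-AS1, at 2.96, 3.29 and 2.66 with and 1.71, 2.12 and 2.24 without (-0.95 ± 0.41, adjusted p = 1.00). The +YBX1 and –YBX1 ranges did not overlap in either, which follows largely from choosing these members by small p. AGAP2-AS1 and MRPL20-AS1 in SCC25 and LINC00941, GRIK1-AS2 (of uncertain identity) and LINC01503 in SCC15 also had an unadjusted p below 0.05, LINC00941 on 9 and 2 reads. In TTN-AS1 the change differed between SCC25 and SCC15 by -1.58 ± 0.54 and in LINC00520 by 2.67 ± 1.07, both with limma's adjusted p = 1.00. LINC00958, LINC00707 and GPRC5D-AS1 stayed at 0 reads in SCC15 –YBX1, and NR2F1-AS1 at 2.03, 2.74 and 2.63 there overlapped its +YBX1 range. In SCC25 –YBX1 the same RNAs were detected in every library, LINC00958 at 5.36, 5.14 and 4.96 log2 CPM.

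**Figure D5:**
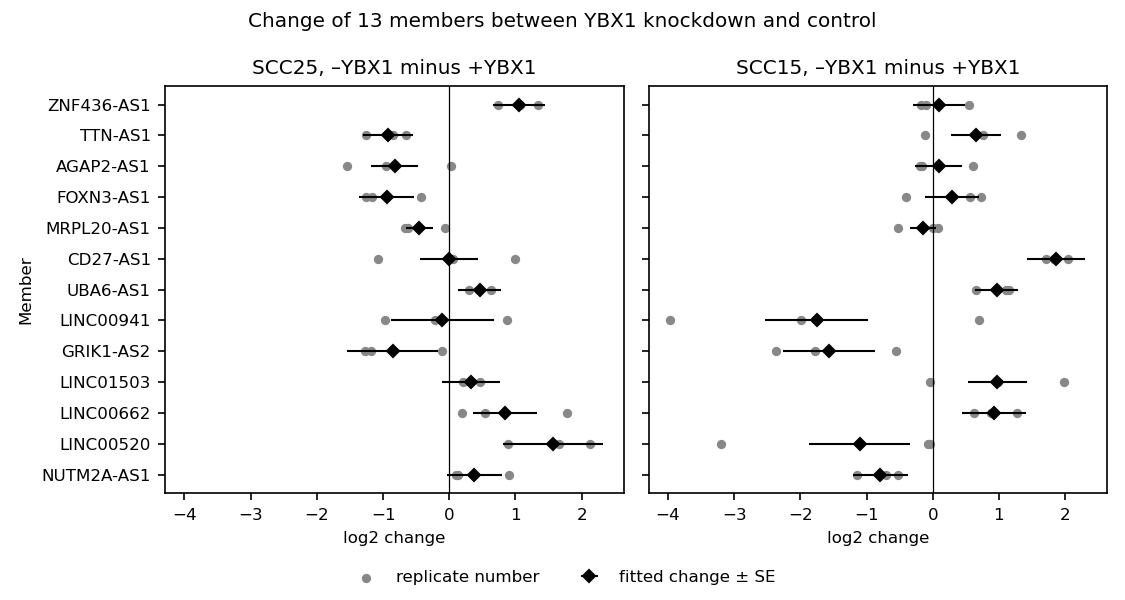
Log2 change between –YBX1 and +YBX1 (x axis) of the 13 members with the smallest p (y axis) in SCC25 and SCC15, with grey points for same-numbered replicates and black diamonds for the fitted change ± SE. CD27-AS1 and UBA6-AS1 lie to the right of 0 in every SCC15 pair, and the diamonds of most members lie within 1 log2 unit of 0.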

How the data were processed

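RNA of 15 libraries in 5 groups of 3 was analysed, grouped by the sample labels. The authors prepared QuantSeq 3′ FWD libraries from total RNA. Their reads were trimmed (Cutadapt), mapped to hg38 by HISAT2, assigned to genes by featureCounts and normalized in limma. They deposited a table of the 3 lines and a table of the knockdown, both in log2 CPM, that is log2 of the reads plus 0.5 over the normalized library size. Whole reads were recovered from 100% of the values (tolerance 0.1), and 6 libraries stand in both tables. Filters were already applied by the authors.

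Comparisons used the deposited log2 CPM in limma (version 3.58.1, R version 4.3.3) through lmFit, contrasts.fit and eBayes with a trend, two-sided, over all 12995 genes of a table, with all its groups in the fit and Benjamini-Hochberg adjustment at 0.05. Errors beside differences are limma SEs. Where a group had 0 reads, the fold is a bound with 3 reads over the group as the floor. With 1 to 3 reads, a ratio with an exact counting interval is given. Intervals and floors cover counting error alone, since no molecular identifiers were used. The fit was tested on simulated data.

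With and without YBX1, deviations of same-numbered libraries from their group means correlated at 0.14, 0.46 and 0.40 in SCC25 and 0.51, 0.35 and 0.22 in SCC15. Some differently numbered libraries correlated more. SCC25 –YBX1 replicate 1 reached 0.24 with +YBX1 replicate 3, and SCC15 –YBX1 replicate 3 reached 0.32 with +YBX1 replicate 2. Whether the numbers pair the libraries is therefore uncertain, and replicate pairs here means libraries of the same number. Adding the number as a block changed no knockdown call.

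Members named were YBX1 first, then the 10 with the highest mean level, the 8 largest called differences in each direction per comparison of lines, the 5 smallest p per knockdown comparison, the literature list, and pairs with both genes called. The members and lists were chosen with earlier results of these data known. Gene positions are from GENCODE v44 on hg38 (168 of 171 matched) and promoters from RefSeq on GRCh38.p14. Alternatives covered scaling, filters, weights, prior count, threshold, block, groups in the fit and leaving out each library. The 3′ end sequences of other members are not reported here.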

Additional observations from a re-analysis of the deposited data

Results flagged for a closer look

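In 2 members the called difference from OKF6 had opposite signs in SCC15 and SCC25, and the direct test of SCC15 against SCC25 also passed. BOLA3-AS1 was higher than OKF6 in SCC15 by 2.23 ± 0.49 (limma, adjusted p = 0.00317) and lower in SCC25 by -1.68 ± 0.49 (adjusted p = 0.0258), with a difference of 3.91 ± 0.49 between the cancer lines (adjusted p = 8.63e-05). Its SCC25 call rested on 10 reads in 3 libraries and was lost in several alternatives. LINC00667 had 0 reads in SCC15 and was fitted at -6.20 ± 0.54 against OKF6 (adjusted p = 4.07e-06), while in SCC25 it was higher by 1.70 ± 0.54 (adjusted p = 0.0353). The difference between the cancer lines was -7.91 ± 0.54 (adjusted p = 1.02e-06), and since SCC15 had no reads the fitted size depends on the prior count. The 3′ end of LINC00667 overlaps an exon of ZBTB14 on the opposite strand, and the cell lines share the OKF6 libraries in both contrasts.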

How the results depend on the processing

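The number of members called depended most on the filter, the threshold and the groups in the fit. Testing only genes above the first quartile of mean level left 83 members and 42 calls in SCC15 against OKF6, 21 in SCC25 against OKF6 and 32 in SCC15 against SCC25, and an adjusted p of 0.01 left 53, 20 and 36. Fitting SCC15 and SCC25 without OKF6 gave 101 calls in place of 61. Leaving out single libraries gave 62 to 93, 26 to 59 and 43 to 79 calls. Knockdown calls stayed at 0 throughout. Equal library medians moved the median difference of all genes from 0.10 to 0.26 in SCC15 against OKF6 and from -0.01 to 0.14 in SCC15 against SCC25, and quantile normalization moved it from 0.13 to -0.05 in SCC25 against OKF6. No named difference changed sign in any of the alternatives in which it was tested. With only genes above the first quartile, 7 of the 48 named differences between lines and 7 of the 20 named knockdown results were tested. The others fell under that filter and could not be checked there. Of the 48 named differences between lines, BOLA3-AS1 in SCC25 against OKF6 was also lost with the replicate block (adjusted p = 0.0504), without SCC15 in the fit (0.0576) and with voom weights (0.0638), and THUMPD3-AS1 without SCC15 in the fit (0.063). Adding the replicate number as a block gave 78, 44 and 56 calls between lines. Between lines the deviations of same-numbered libraries correlated at -0.21 to 0.26, and the labels state no pairing. No other call between lines that was named changed with the block. The cause of these shifts was not tested. The median SD over the members was 0.93 in OKF6, 0.44 in SCC15 +YBX1 and 0.34 in SCC25 +YBX1. The main fit used a shared estimate of the spread for all 3 lines, and the part of this unequal spread in the calls was not tested. At 0.138 to 0.226 CPM per read, members with few reads carry wide intervals.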
